A study of Mus musculus with 29 samples.

Results

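The genes described here encode the nuclear-made subunits of oxidative phosphorylation, picked from the RNA-seq table by name: every gene whose symbol starts with Nduf followed by a, b, c, s or v and a digit, the 4 Sdh genes, and every symbol that starts with Uqcr, with Cox4 to Cox8 or with Atp5. The rule found 84 of the 24062 genes in the table, 37 for complex I, 4 for complex II, 8 for complex III, 18 for complex IV and 17 for complex V. All 84 were matched to a RefSeq gene. The rule used names and no measured value, and was set with earlier results of these data known.

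Oxidative phosphorylation is the work of 5 protein complexes of the inner mitochondrial membrane. Complexes I (NADH dehydrogenase), III (cytochrome bc1) and IV (cytochrome c oxidase) pass electrons from NADH to oxygen and pump protons, complex II (succinate dehydrogenase) feeds in electrons from succinate without pumping, and complex V (ATP synthase) makes ATP from the proton gradient. Complexes I, III, IV and V also hold subunits made from mitochondrial DNA; of the 26 mitochondrially encoded genes looked for, 0 were in the table, so they were not analysed here. A few subunits of complex IV come as pairs of isoform genes, one broadly used and one known from muscle, lung, testis or other tissues. Photoreceptors pack their mitochondria into the inner segment and have a high demand for ATP, while bipolar cells are the interneurons that carry the photoreceptors' signal to the inner retina and divide into ON and OFF classes by their response to light.

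RNA-seq covered 15 libraries of sorted mouse retinal cells, 3 for each of 5 populations, and ATAC-seq, which reads open chromatin, covered 12 libraries in 6 populations. Bipolar cells of all types (pan-BC) were sorted once from Otx2-GFP+/- mice for RNA and, by the labels, from Otx2-GFP+/-; Grm6-YFP+/+ mice for ATAC, ON bipolar cells (ON-BC) once from Otx2-GFP+/-; Grm6-YFP+/+ mice, and OFF bipolar cells (OFF-BC) by a double sort from the same genotype, all at postnatal day 42 to 48. GFP sits in the endogenous Otx2 gene, so these mice have 1 modified Otx2 allele and weakly fluorescent photoreceptors, and YFP is driven by the Grm6 promoter of ON bipolar cells. Rods came from Nrl-eGFP mice and the cells labelled blue cone from Nrl-eGFP;NrlKO mice, whose photoreceptors turn cone-like without the rod factor Nrl and stand in for native blue cones, all at postnatal day 56 and sorted once. In ATAC-seq, 2 libraries of green cones from Opn1mw-GFP mice entered the fit only for the estimate of the spread. The rod and blue cone libraries are labelled as re-analyzed and were made for a previous study by this group, so bipolar cell or photoreceptor, age and library set cannot be told apart in any comparison across the 2 classes.

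Counted reads ranged from 12329548 to 26266746 per RNA library, lowest in the bipolar cell libraries and highest in blue cones, and the 10 most abundant genes took 7.72% to 9.35% of the reads in bipolar cells, 14.3% to 14.9% in blue cones and 20.02% to 23.55% in rods. The normalized count summed over 5 rod markers came to 1393576 to 2019159 in rods, 861 to 1394 in OFF-BC, 16791 to 20464 in ON-BC and 18534 to 22921 in pan-BC. Summed over 5 cone markers it was 1437657 to 1651188 in blue cones, 3942 to 4587 in ON-BC, 40362 to 66063 in pan-BC and 20234 to 89854 in OFF-BC, where replicate 3 was the highest. The 9 bipolar markers summed to 106909 to 157714 in the bipolar populations, 1477 to 2059 in rods and 26329 to 30651 in blue cones. Each label matched its defining markers, with some photoreceptor RNA in the bipolar sorts. In bulk samples such as these, fewer cells of a type and less RNA per cell cannot be told apart.

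Reads of the 84 genes made up 2.53% to 2.84% of all counted reads in pan-BC, 2.65% to 2.76% for ON-BC and 2.73% to 3.14% for OFF-BC, against 0.935% to 1.03% in rods and 1.01% to 1.39% in blue cones. The bipolar and photoreceptor ranges did not overlap. The gap was wide for complex IV and narrow for complex II. Complex IV genes took 0.382% to 0.432% of reads in pan-BC, 0.0729% to 0.0838% in rods and 0.0875% to 0.132% in blue cones. Complex II genes took 0.155% to 0.171%, 0.118% to 0.131% and 0.127% to 0.135% in the same order. The complex II gap was seen in shares only. Summed counts normalized by the size factors overlapped, at 23591 to 26882 in pan-BC, 23130 to 27906 in rods and 23141 to 26274 in blue cones. Complex I, the largest complex and the main entry of electrons, held the largest share of the members' reads of the 5 complexes in every library. Its genes lay at 1.1% to 1.24% in pan-BC, 0.342% to 0.378% in rods and 0.351% to 0.495% in blue cones. Complex V genes lay at 0.631% to 0.708%, 0.276% to 0.31% and 0.313% to 0.423%, and complex III genes at 0.262% to 0.292%, 0.118% to 0.124% and 0.127% to 0.2%. These are shares of each library, so the large share that a few photoreceptor genes take in rods lowers every other gene's share there; the comparisons of single genes below use the size factors instead.

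**Figure D1:**
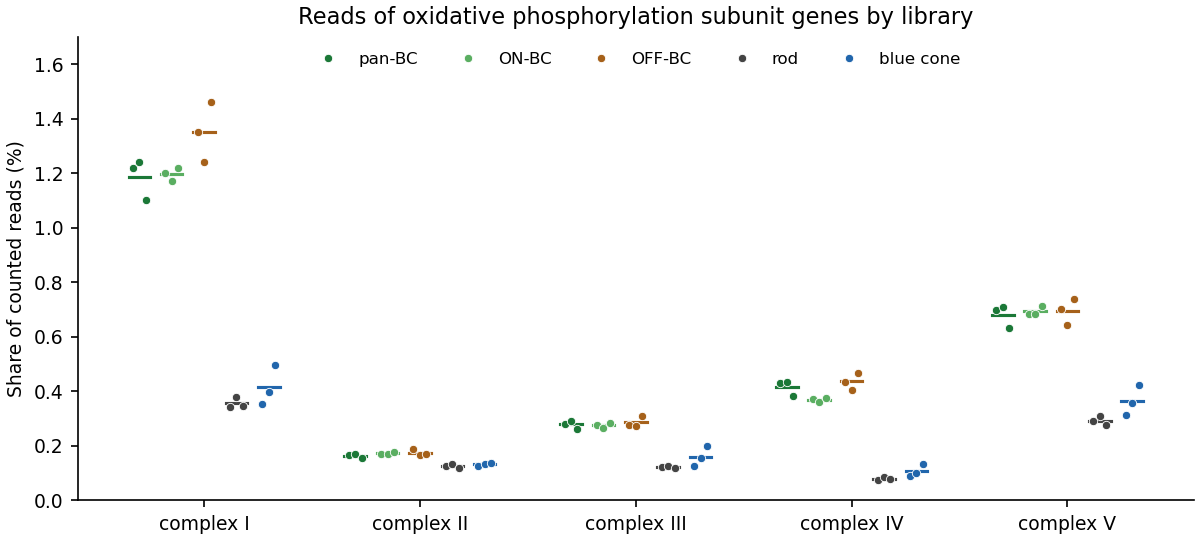
Share of counted reads, in percent, taken by the subunit genes of each complex in each of the 15 RNA-seq libraries; points are libraries and short bars are means of 3. By this share, all bipolar cell libraries sit above all rod and blue cone libraries for every complex, and the distance is smallest for complex II. For complex II, sums normalized by the size factors overlap between pan-BC and photoreceptors.

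Pan-BC was compared with rods to ask how the bipolar and photoreceptor transcriptomes differ. Most subunit genes were higher in pan-BC: of the 81 members with enough reads to test, 52 (64.2%) were higher by more than 2-fold and 0 were lower, at an adjusted p of 0.05 from limma's treat test. Among all 14024 genes tested, 27.8% were higher and 15.8% lower by the same call. The median log2 difference of the members was 1.61, beside 0.21 for all genes. Tested against any difference rather than 2-fold, 67 members were higher and 5 lower, where 44.2% of all genes were higher and 35.4% lower. The 3 members with too few reads to test were Ndufs5, Cox8c and Cox7b2. In complex I, 25 of 36 tested members were higher, in complex II 2 of 4, in complex III 4 of 8, in complex IV 10 of 16 and in complex V 11 of 17. The median difference was 1.65, 1.11, 1.23, 2.16 and 1.56 in that order.

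The members with the widest difference were small accessory subunits and isoforms of complexes III, IV and V. Cox8a, a small accessory subunit of complex IV (chr19:7215158-7217616, GRCm38.p6), had normalized counts of 8333, 8240 and 7105 in pan-BC and 854, 1229 and 1063 in rods. The groups were far apart, with a log2 difference of 2.92 ± 0.15 (SE, n = 3 and 3) and an adjusted p of 4.91e-09 by limma. Atp5e, the epsilon subunit in the stalk of the ATP synthase (chr2:174461075-174464101), had 3828, 3879 and 3390 in pan-BC and 507, 638 and 595 in rods. Every pan-BC library was above every rod library (log2 difference 2.67 ± 0.15 SE, adjusted p = 2.96e-08 by limma). Cox4i1, the common isoform of the largest nuclear-made subunit of complex IV (chr8:120668225-120674209), had 20745, 21075 and 17462 in pan-BC and 2777, 3734 and 3230 in rods. It was 6.11-fold higher in pan-BC. Uqcr11 and Uqcr10, small subunits of complex III, differed by 2.82 and 2.48 on the log2 scale, and Cox6a1 and Cox6b1, of complex IV, by 2.47 and 2.45. Cox4i2, Cox8b and Cox6b2, the less common partners of Cox4i1, Cox8a and Cox6b1, completed the 10 largest differences and are described with the isoforms.

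Several catalytic and core subunits were level between the classes or higher in photoreceptors. Sdha, the flavoprotein of complex II that oxidizes succinate (chr13:74322255-74350240), had normalized counts of 11437, 11062 and 10615 in pan-BC, 17670, 20728 and 17715 in rods, and 17652, 18334 and 18809 in blue cones. Each photoreceptor library was above each pan-BC library (log2 difference from rods -0.76 ± 0.12 SE, adjusted p against 0 of 3.07e-05 by limma, below the 2-fold call). The iron-sulfur subunit Sdhb and the membrane anchor Sdhc exceeded the rod level by 1.36 and 1.52, and the other anchor, Sdhd, by 0.86, under the 2-fold call. The 2-fold call of Sdhb was not stable to leaving out 1 library. It was lost without pan-BC replicate 1 (log2 difference 1.34), pan-BC replicate 2 (1.29), rod replicate 1 (1.28) or rod replicate 3 (1.31). Sdha is also 1 of the reference genes to which the study scaled its qPCR.

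Uqcrfs1, the Rieske iron-sulfur protein that carries electrons in complex III (chr13:30540312-30545316), had 795, 898 and 786 in pan-BC, 1621, 2058 and 1776 in rods, and 2186, 2940 and 3779 in blue cones. Its order was pan-BC lowest and blue cone highest with no overlap, and it was the only complex III member called lower at 2-fold in pan-BC than in blue cones (-1.81 ± 0.21 SE, adjusted p = 0.0027 by limma). Against rods the difference was -1.13 and not called at 2-fold (adjusted p = 0.506). Uqcrc1, a core protein of the same complex, differed by -0.48 from rods and -1.01 from blue cones, both called against 0 only. The partner core protein Uqcrc2 went the other way, at 0.68 and 0.46.

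Of the 7 core subunits of complex I on the electron path, 2 were called at 2-fold above rods: Ndufs7 (log2 difference 2.2 ± 0.14 SE) and Ndufs8 (1.44 ± 0.14 SE). The large iron-sulfur subunit Ndufs1 was lower in pan-BC by a small amount (-0.3, adjusted p against 0 of 0.00596 by limma). Ndufv1, Ndufv2 and Ndufs3 differed by 0.33, 1.16 and 0.43. The median over the 7 was 0.43, beside 1.65 for complex I as a whole. Transcript length also differed: Ndufs7 and Ndufs8 have 763 and 1027 RefSeq exon bases, Ndufs3 949, Ndufv1 1608, Ndufv2 1637 and Ndufs1 2927. Sdha, Atp5a1 and Atp5b have 2859, 2432 and 1879. The difference varied with length, as given below, and the part of length in the contrast of core with other subunits was not tested. In complex V the alpha and beta subunits that hold the catalytic sites missed both calls: Atp5a1 had means of 15978 in pan-BC and 18713 in rods (-0.22 ± 0.14 SE), and Atp5b 19613 and 18272 (0.1 ± 0.15 SE), both with an adjusted p against 0 above the threshold (0.149 and 0.529).

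**Figure D2:**
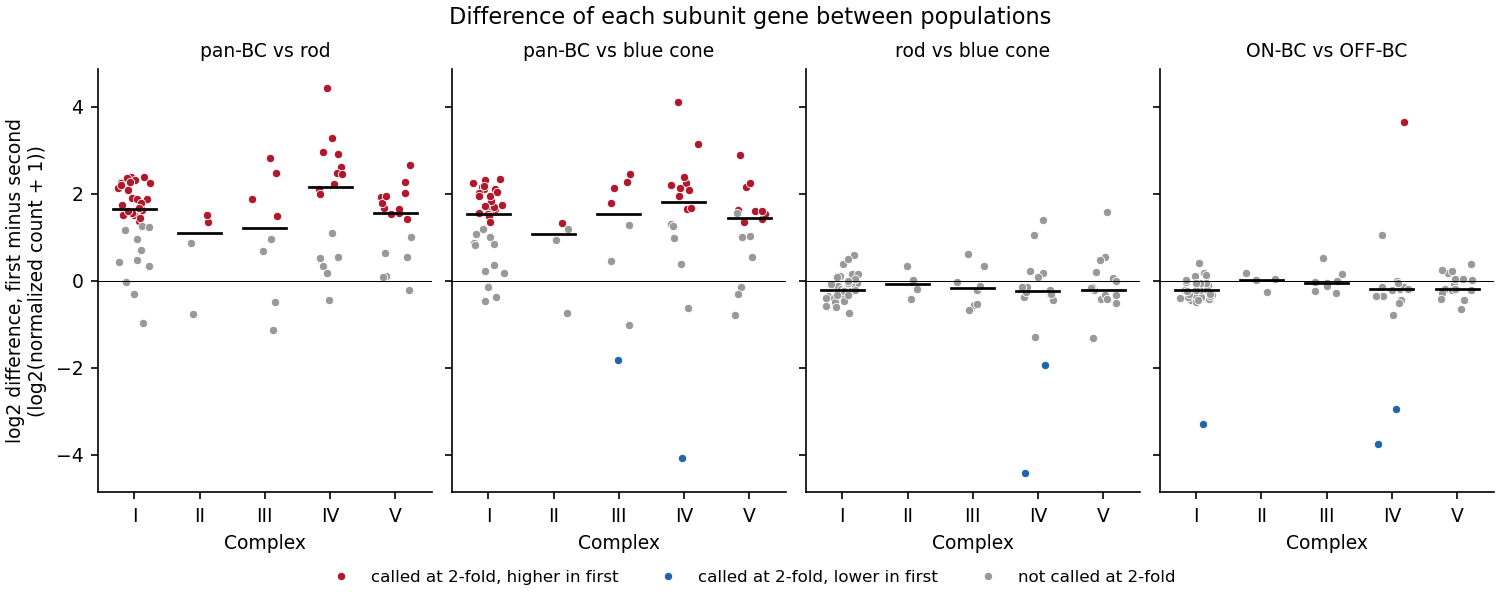
Log2 difference of each of the 81 tested subunit genes, by complex, in the 4 comparisons (first population minus second, on log2(normalized count + 1)); each point is a gene, red and blue mark the 2-fold call and black bars are medians. Complex IV has the highest median in pan-BC vs rod (2.16), and the 2 comparisons within a class are centred near 0 with a few isoform genes far out.

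Blue cones were compared with pan-BC in the same way; the 2 comparisons share the pan-BC libraries. Here 48 of 81 members (59.3%) were higher by more than 2-fold in pan-BC and 2 were lower, where 22.7% of all genes were higher and 13.7% lower. The members' median difference was 1.53, beside 0.16 for all genes. Against 0, 66 were higher and 7 lower (all genes 42% and 34.3%). The 2-fold calls were 23 in complex I, 1 in complex II, 4 in complex III, 10 in complex IV and 10 in complex V. Atp5e (2.89), Uqcr10 (2.45), Cox7a2 (2.39), Ndufa11 (2.33), Ndufs6 (2.32), Uqcr11 (2.27) and Cox4i1 (2.25) were among the 10 largest. Cox8a missed the 2-fold call (log2 difference 0.99 ± 0.15 SE, adjusted p = 0.974 by limma) but was called higher in pan-BC against 0 (adjusted p = 1.87e-05 by limma). Its blue cone counts of 3123, 4041 and 4906 lay between those of rods and pan-BC. Sdha, Atp5a1 and Atp5b stood at -0.73, -0.15 and -0.31. The 2 members called lower were Uqcrfs1 and the isoform Cox6a2.

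The difference between bipolar cells and photoreceptors was larger for subunits with short transcripts. Of members with under 700 exon bases in RefSeq, 26 of 35 were called higher at 2-fold against rods with a median of 1.87, and of those with 700 to 1000 bases, 13 of 16 with a median of 1.8. Of members with 1000 to 2000 bases, 11 of 23 were called and the median was 1.16, and of those over 2000 bases, 2 of 7, with a median of 0.08. All genes tested also had higher medians in the 2 classes under 1000 bases than in the 2 longer ones. Their median was 1.09 under 700 bases, where 40.3% were called higher and 7.69% lower, 1.23 and 41.9% at 700 to 1000 bases, 0.54 and 28.6% at 1000 to 2000, and -0.01 and 26.3% above 2000. Members thus lay above genes of their own length class by 0.78, 0.57, 0.62 and 0.09. The comparison with blue cones had the same order of classes for the members as a whole. The members' medians there were 1.69, 1.53, 0.94 and -0.15 and those of all genes 1.48, 1, 0.34 and -0.01. Across the 81 members Spearman's rho between exon length and difference was -0.42 for rods and -0.53 for blue cones, a description over genes that share the same libraries; over all 13944 genes with a length it was -0.08 and -0.05.

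When a smooth trend on length was taken off each library, a setting chosen after seeing the data, 38 members were called higher and 0 lower against rods (median 1.19), and 25 higher and 2 lower against blue cones (median 0.91). Cox4i1 and Cox8a then differed from rods by 2.11 and 2.39, while Ndufa4, Sdhb, Sdhc and Atp5g1 fell under the 2-fold call. The bipolar and photoreceptor libraries were prepared in different studies, and how each library preparation treated short transcripts was not tested.

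**Figure D3:**
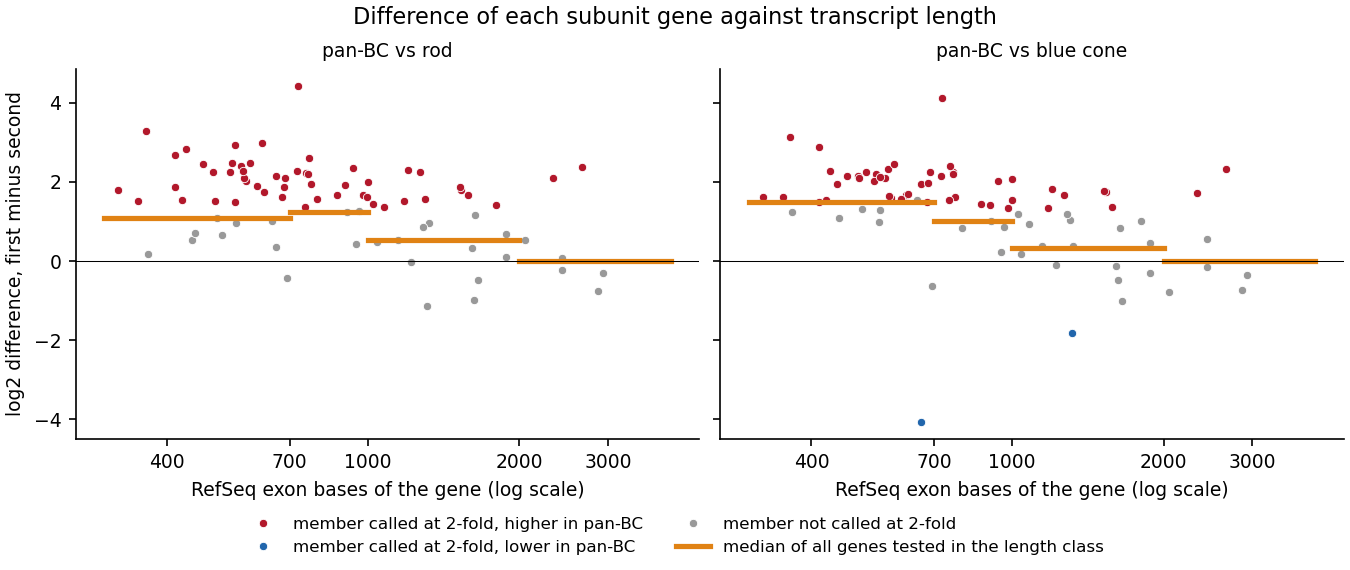
Log2 difference of each tested subunit gene (first minus second) against the RefSeq exon length of the gene in bases, on a log axis, for pan-BC vs rod and pan-BC vs blue cone; colours give the 2-fold call and orange bars the median of all genes tested in each length class. Against rods the members' medians step down with length from 1.87 under 700 bases to 0.08 above 2000 bases, and those of all genes go from 1.09 to 1.23, 0.54 and -0.01 over the 4 classes.

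Level per length ordered the members differently in the 2 classes. Ndufa4, a small subunit named for complex I and since assigned to complex IV, had the highest normalized count per kilobase of exon in all 3 bipolar populations (35661 for pan-BC, 35531 for ON-BC, 27009 for OFF-BC) and also in rods (12497). In the bipolar populations Cox4i1 followed, at 25865, 23303 and 26783 per kilobase in pan-BC, ON-BC and OFF-BC. In rods Atp5b (9724), Atp5a1 (7695), Sdha (6542) and Uqcrc1 (6058) followed, and in blue cones Atp5b (13017) and Uqcrc1 (8925) were at the top, ahead of Ndufa4 (8460). Catalytic and core members thus held the places after Ndufa4 in rods. In pan-BC they were held by Cox4i1, Cox6a1 (17758), the c-ring gene Atp5g3 (15310) and Cox6b1 (14858). The replicate spread was larger in photoreceptors: the median coefficient of variation over the tested members was 7.9% for ON-BC, 9.0% for pan-BC, 11.2% for OFF-BC, 14.0% for rods and 22.8% in blue cones, where replicate 3 had the highest share of reads from these genes.

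For some members the genome holds other copies of many 50-base stretches of the transcript, so that a 50-base read from them has more than 1 match. In 10 members at least 50% of all 50-base stretches of the transcript occur elsewhere in the genome: Atp5g2 (100%), Atp5l (89.4%), Cox7c (87.8%), Ndufb4 (87.2%), Atp5g1 (86.5%), Ndufs5 (82.8%), Atp5h (73.9%), Cox5b (62.9%), Uqcrb (60.1%) and Cox7a2l (54.8%). Their median level in pan-BC was 480.1 per kilobase, against 4938 for the 59 members with under 10% of such stretches and 8171 for the 15 with 10 to 50%. Within this group, pan-BC levels ran from 0 to 5147 per kilobase, the highest being Uqcrb. Cox7c had 87.2, 68.6 and 73.4 normalized counts in pan-BC. The part of the copies in these levels was not tested. The levels of these 10 members are uncertain. Without them, 49 of 72 tested members were higher than in rods, and 43 were higher and 2 lower than in blue cones. Exons of Ndufa13 share 29.6% of their bases with Tssk6 on the other strand, and those of Atp5j, Ndufb11, Uqcrc2, Cox6a2 and Ndufa2 share 10% to 13.6% with Gabpa, Rbm10, Pdzd9, Itgad and Tmco6; the sources used here state no strand for the counts, so reads of these pairs may be mixed.

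Few of these genes were called between rods and blue cones. At the 2-fold call, 0 of 81 members were higher in rods and 2 were higher in blue cones, where 4.63% and 11.3% of all genes were higher and lower in rods. Against 0, 7 were higher and 18 lower in rods, beside 27.2% and 30.4% of all genes, and the median difference was -0.2. This count of 25 became 43 without blue cone replicate 1 and 12 with the replicate number as a block. The 2 members called were complex IV isoform genes. Cox8a had 854, 1229 and 1063 in rods and 3123, 4041 and 4906 in blue cones, with no overlap (-1.93 ± 0.15 SE, adjusted p = 0.000103 by limma). Cox6a2, the isoform of Cox6a known from heart and skeletal muscle (chr7:128205435-128206366), had 18.1, 37.9 and 25.2 in blue cones and 0, 1.02 and 0 in rods. Rods held 1 read of it in all, and no bipolar library was above 3.19 normalized counts. The fitted difference of -4.41 ± 0.59 (SE, adjusted p = 0.000178 by limma) depends on the pseudocount, and the call was lost with DESeq2. Among differences called against 0 only, the widest were Atp5l (1.58) and Cox7c (1.4), both uncertain because of genome copies, and Cox7a1 (1.06) in rods, and Atp5s (-1.31) and Cox6b2 (-1.3) in blue cones. Uqcrh (0.62) and Ndufa4 (0.59) were also higher in rods, and Ndufa8 (-0.73), Uqcrfs1 (-0.68), Ndufa9 (-0.59), Uqcrc1 (-0.53) and Atp5b (-0.41) in blue cones.

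As among all genes, few subunits were called at 2-fold between ON-BC and OFF-BC, and those called were isoform genes. Of 81 members, 1 (1.23%) was higher and 3 (3.7%) were lower in ON-BC at the 2-fold call, where 2.95% and 3.6% of all genes were called. Against 0, 2 were higher and 8 lower, beside 12.7% and 14.2% of all genes, and the median difference was -0.19. Every member of complexes II and III, and 35 of 36 in complex I and all 17 in complex V, missed the 2-fold call. The smaller differences called against 0 were Ndufs8 (-0.45), Ndufa6 (-0.43), Ndufc2 (-0.42), Cox6c (-0.51) and Atp5sl (-0.64), a gene of the Atp5 name that is known as a complex I assembly factor, and Cox5a (1.06), whose libraries overlapped. ON-BC lay below OFF-BC in every library for 28 of the 81 members and above for 4. The same count was not made over all genes, so it has no baseline and is no result about the members. Without OFF-BC replicate 3, the library with the most cone marker RNA, 5 members in place of 10 were called against 0, and without ON-BC replicate 1, 6. At 2-fold the count was 4 with or without OFF-BC replicate 3.

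Cox4i2, the isoform of subunit 4 known from lung and hypoxic cells (chr2:152754173-152765037), had 1140, 705 and 758 normalized counts in OFF-BC, 72.2, 54.9 and 61.6 in ON-BC, 257, 261 and 252 in pan-BC, 5.82, 12.3 and 18.4 in rods and 12.03, 9.87 and 22.2 in blue cones. OFF-BC stood above all other libraries, pan-BC lay between OFF-BC and ON-BC, and photoreceptors were lowest. ON-BC was lower than OFF-BC by a log2 difference of -3.74 ± 0.35 (SE, n = 3 and 3; adjusted p = 2.3e-05 by limma), and pan-BC was higher than rods by 4.42 and than blue cones by 4.12. Per kilobase, Cox4i2 made up 4.24% ± 0.76 (SD, n = 3) of the Cox4i1 and Cox4i2 sum in OFF-BC, 1.36% ± 0.12 in pan-BC, 0.37% ± 0.052 in ON-BC, 0.386% ± 0.19 in rods and 0.357% ± 0.09 in blue cones. The common isoform was by far the larger in every population.

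Cox6b2, known from testis (chr7:4751792-4753094), had the same order within bipolar cells. It had 463, 520 and 627 in OFF-BC, 77.4, 80.4 and 50.3 in ON-BC, 150, 190 and 190 in pan-BC, 19.4, 22.5 and 22.7 in rods and 55.7, 56.9 and 51.1 in blue cones. No OFF-BC library overlapped with another population, and ON-BC differed from OFF-BC by -2.95 ± 0.22 (SE, adjusted p = 6.83e-06 by limma). Its share of the Cox6b sum per kilobase was 4.53% ± 0.9 (SD, n = 3) in OFF-BC and 0.828% ± 0.23 in ON-BC. Ndufa4l2, a paralog of Ndufa4 known as a gene induced by low oxygen (chr10:127514939-127517154), was scarce: 15.7, 38.5 and 16.6 in OFF-BC and 5.16, 0.98 and 0 in ON-BC. OFF-BC was higher in all libraries (-3.29 ± 0.61 SE, adjusted p = 0.016 by limma), but the call was lost with DESeq2, with a pseudocount of 10, with the replicate block, in a fit of the 2 populations alone and without ON-BC replicate 2 or 3 or OFF-BC replicate 2.

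Cox4i2 and Ndufa4l2 are also known as genes of pericytes, the contractile cells of capillaries. Summed over 8 pericyte markers, a list added after these values were seen, the normalized count was 137 to 199 in OFF-BC, 247 to 408 in ON-BC, 352 to 381 for pan-BC, 19 to 44 in rods and 17 to 49 in blue cones, with 1 of the 8 at 0 in OFF-BC and 2 at 0 in ON-BC and in pan-BC. Of the 3 with enough reads to test, 0 were called between ON-BC and OFF-BC, and 2 (Rgs5 and Notch3) exceeded both photoreceptor populations in pan-BC at 2-fold. The 3 endothelial markers summed to 10 to 21 in OFF-BC and 28 to 34 in ON-BC. The part of pericyte RNA in the levels of Cox4i2 and Ndufa4l2 was not tested.

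Cox8b, the heart and skeletal muscle partner of Cox8a (chr7:140898942-140900446), was the member higher in ON-BC. It had 40.2, 26.5 and 28.7 in ON-BC, 14.9, 13.1 and 12.2 in pan-BC, and 0, 1.20 and 6.62 in OFF-BC. Rods held 0, 0 and 2.16, blue cones 0, 0.759 and 1.48. ON-BC and pan-BC stood clear of the other 3 populations (ON-BC minus OFF-BC 3.66 ± 0.66 SE, adjusted p = 0.01 by limma). The call was lost without OFF-BC replicate 1, where the difference was 2.98, and with the replicate block; ON-BC and OFF-BC libraries of 1 number share an age and a genotype in the labels. With so few reads in rods and blue cones, the fitted differences of 3.29 and 3.14 from pan-BC depend on the pseudocount and were no longer called at a pseudocount of 10. Cox8b was 0.674% ± 0.15 (SD, n = 3) of the Cox8 sum per kilobase in ON-BC. Summed over 5 muscle markers the count was 788 to 1215 in ON-BC, 868 to 1030 in pan-BC, 740 to 795 in OFF-BC and 137 to 239 in photoreceptors; their part in the level of Cox8b was not tested.

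Cox7a1, the muscle isoform of Cox7a, had a mean of 66.3 in OFF-BC, against 39.4 for pan-BC, 37.9 for ON-BC, 34.1 for rods and 16.0 for blue cones, with no 2-fold call. Against 0 it was called above blue cones, in pan-BC by 1.25 ± 0.29 (SE, adjusted p = 0.00106 by limma) and in rods by 1.06 ± 0.29 (adjusted p = 0.00544 by limma). Its partner Cox7a2 exceeded the rod level by 2.22 in pan-BC. The share of Cox7a1 in the Cox7a sum per kilobase was 4.29% ± 0.61 (SD, n = 3) in rods, 2.4% ± 0.86 in blue cones, 1.57% ± 0.43 in OFF-BC, 1.13% ± 0.16 in ON-BC and 1.1% ± 0.21 in pan-BC, and each rod library was above every other library. Cox7b was 2 higher, and Cox7b2 had too few reads to test. Cox6a1 had 9912, 10388 and 8360 in pan-BC but 4465, 5613 and 5007 in ON-BC and 5245, 5982 and 6081 in OFF-BC, so the mixed population lay above both of its sorted parts; pan-BC was sorted from mice without the Grm6-YFP transgene, and no test was planned between these groups. Of the Atp5g genes, which encode the c ring of the ATP synthase, Atp5g3 and Atp5g1 exceeded the rod level by 2.28 and 1.66 in pan-BC, and Atp5g2 had means of 25.3 and 11.9 and no 2-fold call.

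**Figure D4:**
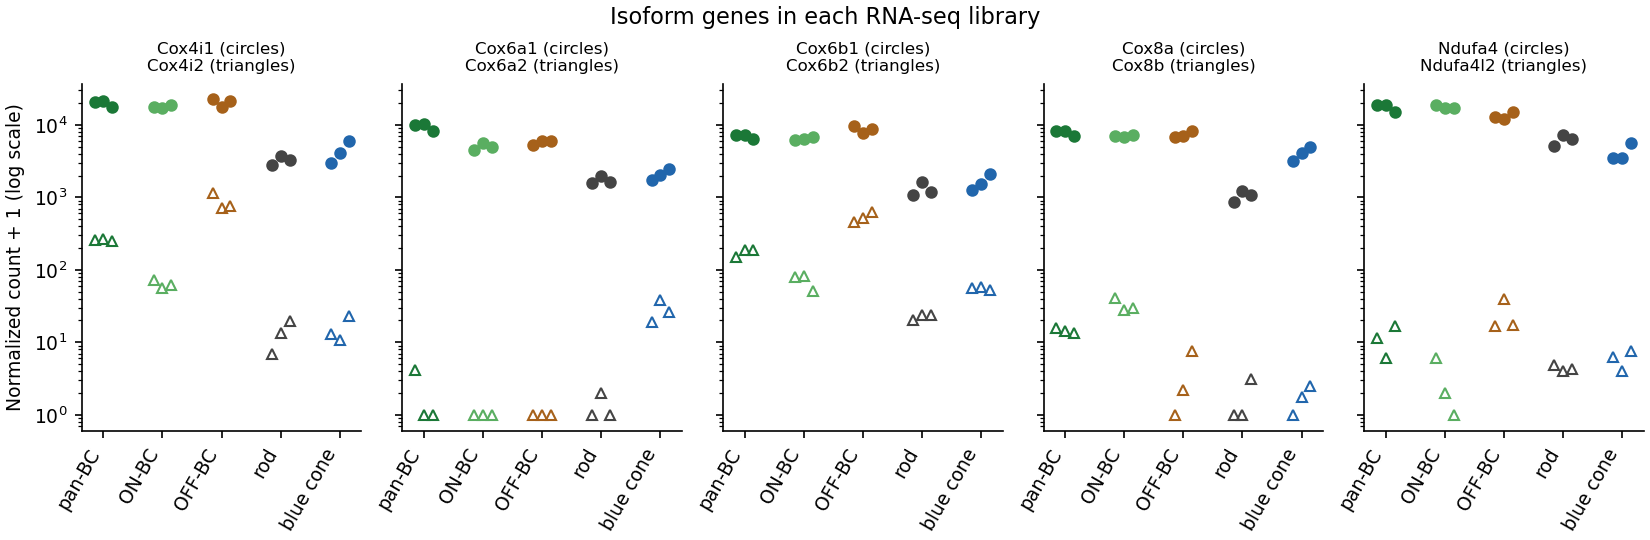
Normalized count + 1, on a log axis, of 5 pairs of isoform genes in each of the 15 RNA-seq libraries by population; filled circles are the common gene and open triangles its partner. Cox4i2 and Cox6b2 are highest in OFF-BC, Cox8b in ON-BC and Cox6a2 in blue cones, each well below its common partner.

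Genes that assemble the complexes or supply them with electrons were called in both directions, as were genes at large. Of all genes tested, 27.8% were higher and 15.8% lower in pan-BC than in rods at 2-fold. Of 13 complex I assembly factors tested, 0 were higher and 2 lower in pan-BC than in rods at 2-fold (Timmdc1 -1.36 and Foxred1 -1.29), with a median of -0.59. Complex II assembly factors had 0 calls among 2, and complex V factors 0 higher and 1 lower among 3 (Tmem70, -1.62). Complex III factors had Uqcc2 higher (2.69) and Lyrm7 lower (-3.51) among 5. Complex IV factors had 5 higher and 3 lower of 18, near the shares of all genes, and a median of 0.74. Of those called higher, Cox16 shares 85.1% of its exon bases with Gm20498 on the same strand. Cmc1 and Pet100 share 48.5% and 20.9% with Azi2 and Pcp2 on the other strand. Counts of Cox16, Cmc1 and Pet100 are therefore uncertain. Cox16 and Pet100 were also called higher than in blue cones. The copper chaperone Cox17 was higher by 2.47, and Cox11 and Cox15, which insert copper and make heme A, were lower by -2.93 and -2.04. Against blue cones the counts were 0 and 2, 0 and 0, 1 and 1, 3 and 3, and 0 and 1 for complexes I to V in order. Of all genes, 22.7% were higher and 13.7% lower there.

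Of 6 genes tested from a list of electron carriers, 1 was above the rod level at 2-fold (Etfb, 1.54) and 0 were lower. That list also holds Cyc1 and Ndufab1, subunits of complexes III and I whose names the rule does not match. Cycs, somatic cytochrome c, had means of 157 and 213 and missed both calls. Of 13 genes of the tricarboxylic acid cycle, which makes the NADH and succinate that the chain oxidizes, 4 were higher, among them Idh3g (1.9), Idh3b (1.57) and Suclg1 (1.58), and 1 was lower (Dld, -1.43). The other higher gene, Suclg2, was near the floor, with means of 7.25 and 0.323, so its fitted difference of 2.49 depends on the pseudocount. The shares of all genes were 27.8% higher and 15.8% lower. Against blue cones 0 genes of the carrier list were called at 2-fold. There 2 cycle genes were higher (Idh3b and Idh3g) and 0 lower, beside 22.7% and 13.7% of all genes. Idh3a, the catalytic partner of Idh3b and Idh3g, was lower in rods than in blue cones by -1.62. The cycle had 0 higher and 2 lower there, beside 4.63% and 11.3% of all genes. In ON-BC against OFF-BC, the assembly factor Pet100 was the single gene of these lists called at 2-fold, with means of 15394 and 3073 (2.32 ± 0.18 SE, adjusted p = 3.73e-05 by limma). Of all genes, 2.95% were higher and 3.6% lower. Exons of Pet100 share 20.9% of their bases with Pcp2, a gene on the other strand, so its counts may hold reads of Pcp2.

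At the promoters, the part of member regions less open in pan-BC than in rods was near that of all promoter regions in the main fit. The part more open was smaller than among all promoter regions. In ATAC-seq, 94 regions of 200 bases, at 78 of the members, had their centre within 1000 bases before to 100 bases after a RefSeq transcription start. Between pan-BC and rods, 2 of the 94 were more open and 16 less open in pan-BC by more than 2-fold, with a median log2 difference of -0.65. Of all 108448 regions, most of them away from promoters, 40.3% were higher and 11.2% lower with a median of 1.16; of the 16496 promoter regions of all genes, 17.2% were higher and 13.8% lower with a median of -0.37. The 16 less open regions belonged to 15 members, of which 12 were higher in pan-BC at the RNA level by the 2-fold call, 0 were lower and 3 were not called, beside 64.2% higher and 0 lower among all tested members. With edgeR on the recovered reads 3 regions were higher and 35 lower. Without pan-BC replicate 2 the count of called regions was 9, and without rod replicate 1 it was 11, in place of 18.

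Between pan-BC and blue cones, 3 regions were higher and 1 lower in the main fit, and 1 higher and 12 lower with edgeR, so the direction of the split depended on the tool; without pan-BC replicate 2, 1 region was called. All regions had 28.8% higher and 7.13% lower, and all promoter regions 11.5% and 3.76%. Rods and blue cones differed in 0 of 94 regions by limma, with 1 at an unadjusted p under 0.05 and 1 called by edgeR, where 1.46% of all regions were higher and 8.56% lower, and 1.04% and 5.55% of all promoter regions. ON-BC and OFF-BC also differed in 0, with 0 at an unadjusted p under 0.05 and 0 by edgeR, where 4.58% and 2.8% of all regions were called, and 0.37% and 0.903% of all promoter regions.

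The upstream 250 bases of 3 genes are printed for their called ATAC-seq differences between pan-BC and rods: the lowest at Ndufs8, the higher of the 2 positive ones at Cox7c, and that of Cox8a, the only member region also called lower in pan-BC than in blue cones. They are RefSeq sequences of build GRCm38.p6 on the minus strand, 5′ to 3′ up to the base before the start site, of Ndufs8 (chr19:3912775-3913024), Cox8a (chr19:7217617-7217866) and Cox7c (chr13:86046796-86047045).
Ndufs8: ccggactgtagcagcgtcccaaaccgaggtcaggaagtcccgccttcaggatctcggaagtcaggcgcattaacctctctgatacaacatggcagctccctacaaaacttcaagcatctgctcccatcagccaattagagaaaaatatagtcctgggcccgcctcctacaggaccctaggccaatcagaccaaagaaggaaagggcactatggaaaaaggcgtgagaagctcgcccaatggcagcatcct
Cox8a: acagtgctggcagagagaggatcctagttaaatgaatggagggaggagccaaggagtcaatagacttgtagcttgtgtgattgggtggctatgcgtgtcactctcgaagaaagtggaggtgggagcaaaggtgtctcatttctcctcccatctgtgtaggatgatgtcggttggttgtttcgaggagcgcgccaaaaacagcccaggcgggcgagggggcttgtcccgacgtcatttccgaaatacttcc
Cox7c: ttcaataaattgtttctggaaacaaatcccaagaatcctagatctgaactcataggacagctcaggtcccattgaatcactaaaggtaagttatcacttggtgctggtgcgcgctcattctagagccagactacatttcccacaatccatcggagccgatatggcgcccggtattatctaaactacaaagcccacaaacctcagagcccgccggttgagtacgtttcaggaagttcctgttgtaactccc

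The region over the Ndufs8 promoter (chr19:3912785-3912984) had 230 and 217 normalized counts in the 2 pan-BC libraries and 1177 and 1149 in the 2 rod libraries. It was the region with the lowest difference among the 94 (-2.37 ± 0.18 SE, adjusted p = 3.52e-06 by limma), while Ndufs8 RNA was higher in pan-BC by 1.44. The Cox8a region (chr19:7217598-7217797) had 156 and 143 in pan-BC, 579 and 512 in rods and 506 and 386 in blue cones. It was less open in pan-BC than in both (-1.86 and -1.56). Cox8a RNA was higher in pan-BC, by 2.92 from rods and by 0.99 from blue cones, the latter under the 2-fold call. The Cox7c region (chr13:86046744-86046943) went the other way, with 516 and 795 in pan-BC, 171 and 158 in rods and 162 and 183 in blue cones. It was more open in pan-BC (1.96 from rods, adjusted p = 0.000679; 1.89 from blue cones, adjusted p = 0.00209, limma), and Cox7c RNA, which is uncertain because of its genome copies, differed by 0.54 and 1.94. A region at Atp5l with few reads differed more from rods, by 2.46, and was not called (adjusted p = 0.0824 by limma). The other region called more open than in rods was at Atp5j (1.88), and those more open than in blue cones were at Atp5f1 (1.55) and Uqcrb (1.46).

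**Figure D5:**
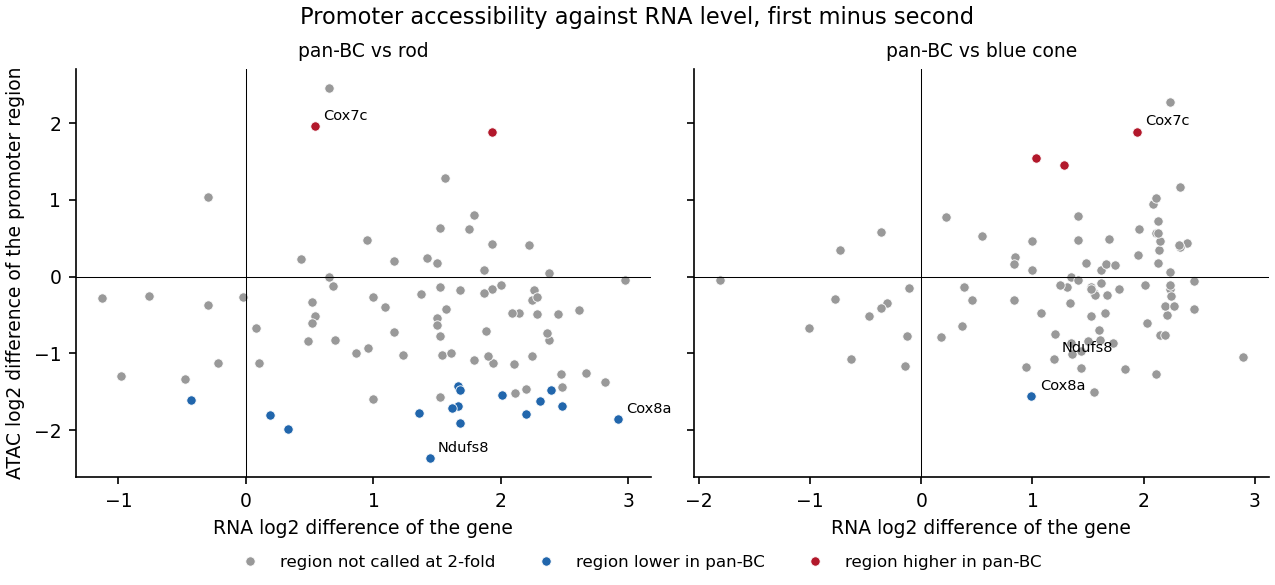
ATAC-seq log2 difference of each promoter region against the RNA log2 difference of its gene (first minus second) for pan-BC vs rod and pan-BC vs blue cone; each point is a region, and blue and red mark regions called lower or higher in pan-BC at 2-fold. Against rods most blue points lie to the right of 0, where RNA was higher in pan-BC, as 64.2% of all tested members were by the 2-fold call; examples are Ndufs8 (1.44 and -2.37) and Cox8a (2.92 and -1.86).

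Cox4i2 had no region in this window; the nearest, centred 335 bases after its start (chr2:152754408-152754607), had 2.99 and 11.7 in ON-BC and 32.3 and 21.4 in OFF-BC, and was not called (-1.94, adjusted p = 0.507 by limma). The Cox6b2 promoter region had 17.9 and 8.79 in ON-BC and 20.2 and 26.3 in OFF-BC (-0.82, not called). A region 321 bases inside Sdha, outside the window, had 138 and 132 in rods, 18.4 and 24.5 in pan-BC and 15.5 and 19.5 in blue cones, and was called in rods against both. The region at the Sdha start itself differed by -0.25 between pan-BC and rods and was not called.

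Motifs known from promoters of mitochondrial genes were searched on both strands in the RefSeq promoter windows of 250 bases before to 50 after the start, of which 75 belonged to 69 members and 32851 to all genes. The NRF1 letters GCATGCGC were in 13.3% of member windows and 2.7% of all, the ETS or GABP letters CCGGAAG in 21.3% and 8.9%, the YY1 letters AAGATGGC in 16.0% and 2.7%, and the ERR letters AAGGTCA in 10.7% and 4.7%. The letters TAATCC, bound by CRX and OTX2, homeodomain factors of photoreceptors and bipolar cells, were in 8.0% of member windows and 7.1% of all. A match is a run of letters and no shown site. The pair Cox6b1 and Cox6b2 is printed because Cox6b2 was called between ON-BC and OFF-BC at -2.95 while Cox6b1 had means of 6403 and 8718 and was not called: the common Cox6b1 (chr7:30626115-30626364, minus strand) holds an ETS match, and Cox6b2 (chr7:4753095-4753344, minus strand) a TAATCC match, each in capitals on the reverse strand, 28 and 160 bases before the start.
Cox6b1: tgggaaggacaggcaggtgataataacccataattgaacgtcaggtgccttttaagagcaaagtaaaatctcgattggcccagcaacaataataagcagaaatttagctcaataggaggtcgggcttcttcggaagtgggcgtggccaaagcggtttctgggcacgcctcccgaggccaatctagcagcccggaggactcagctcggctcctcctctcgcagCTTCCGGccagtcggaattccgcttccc
Cox6b2: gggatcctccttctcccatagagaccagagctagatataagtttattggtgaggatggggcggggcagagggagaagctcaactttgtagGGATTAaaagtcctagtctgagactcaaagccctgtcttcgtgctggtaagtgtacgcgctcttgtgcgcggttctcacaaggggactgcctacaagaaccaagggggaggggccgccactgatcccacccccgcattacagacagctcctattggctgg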

How the data were processed

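RNA-seq (15 libraries) and ATAC-seq (12 libraries in the region table) were used as the authors deposited them: read counts divided by 1 size factor per library, a signal in which 100% of values above 0 came out as whole reads within 0.01. For RNA the authors aligned single-end 50-base reads of SMARTer cDNA with STAR 2.7.0d and counted with HTSeq 1.9 on GRCm38, and for ATAC-seq they used MACS2 2.1.1, per the study's methods and processing notes, and Bowtie2, as version 2.2.5 in the notes and another version in the methods. Peak lists were not used.

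Values were analysed as log2(normalized count + 1) after edgeR's filter on low counts (14024 genes, 108448 regions) with limma 3.58.1 in R 4.3.3, in 1 model over all libraries of an assay. A 2-fold call is treat against a log2 difference of 1, any difference is a test against 0, both with Benjamini-Hochberg adjustment at 0.05. edgeR 4.0.16 and DESeq2 1.42.0 on the recovered reads were alternatives; at 2-fold edgeR called 6728, 5777, 2739 and 1226 genes in the 4 comparisons, where limma called 6112, 5092, 2231 and 919. The scripts were tested on simulated data.

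Named were the 10 largest 2-fold calls of each comparison, the isoform families, the Sdh genes and the core subunits; other members were named from their values. Members and lists were chosen with earlier results of these data known. Lists covered complex I core subunits, mitochondrially encoded genes, carriers, assembly factors, the tricarboxylic acid cycle and cell markers; summed normalized counts of the marker lists not given in the results were 972 to 3152 (Müller glia), 161 to 2427 (amacrine), 32 to 274 (ganglion), 6 to 53 (horizontal) and 0 to 81 (pigment epithelium). Exon lengths, loci and promoters are from RefSeq (GRCm38.p6), with no promoter entry for 15 members. The values of 1 member are not reported here. Replicates differed by more than sampling noise and are biological by the study's methods.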

Additional observations from a re-analysis of the deposited data

How the results depend on the processing

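Counts of calls stayed within 1.5 times, and medians within the spread between libraries, in 205 of 232 results under the alternatives, and 660 of 697 differences of named genes stayed called, with 0 reversed. The exceptions follow. With library totals alone the median over all genes rose from 0.21 to 0.55 (pan-BC vs rod) and from 0.16 to 0.44 (blue cone), the members' medians were 1.96 and 1.82, and calls against 0 numbered 41 (rod vs blue cone) and 19 (ON-BC vs OFF-BC). With the length trend removed, chosen after seeing the data, the medians were 1.19 and 0.91, that of ON-BC vs OFF-BC turned from -0.19 to 0.02, 27 members were called at 2-fold against blue cones, and 41 against 0 between rods and blue cones. With 2 populations only, calls against 0 numbered 14 (rod vs blue cone) and 18 (ON-BC vs OFF-BC). At 2-fold between rods and blue cones edgeR called 4 and DESeq2 1, and DESeq2 called 17 against 0 between ON-BC and OFF-BC. For promoter regions edgeR called 38 (rod), 13 (blue cone) and 1 (rod vs blue cone), as did a window of 500 bases around the start for the last, 1. The causes were not tested.

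Whether replicate numbers pair the samples was left undecided, and the main fit held no term for them. Correlations of same-numbered deviations were -0.08 to 0.22 in RNA and -0.03 to 0 in ATAC-seq. Between ON-BC and OFF-BC in RNA, libraries of different numbers gave -0.15 to 0.21. Deviations from the mean of so few libraries sum to 0 in each group, so these correlations cannot exclude pairing. ON-BC and OFF-BC libraries of 1 number share an age in the labels. With the replicate block, calls against 0 numbered 12 (rod vs blue cone) and 18 (ON-BC vs OFF-BC), and 2 at 2-fold for ON-BC vs OFF-BC, Cox8b and Ndufa4l2 being lost.

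Leaving out 1 library at a time gave, at 2-fold, 47 to 52 calls (pan-BC vs rod), 41 to 53 (blue cone), 2 to 3 (rod vs blue cone) and 3 to 4 (ON-BC vs OFF-BC). Against 0 it gave 69 to 72, 70 to 74, 19 to 43 and 5 to 14; the 43 came without blue cone replicate 1. Medians ran from 1.48 to 1.7, 1.38 to 1.64, -0.35 to -0.02 and -0.29 to -0.13. Promoter regions ran from 9 to 18, 1 to 4, 0 to 0 and 0 to 0. With 3 libraries a group in RNA and 2 in ATAC-seq, and few reads in Cox6a2, Cox8b and Ndufa4l2, differences under 2-fold and levels of those genes are the least certain.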
